A study of Homo sapiens with 8 samples.

Results

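The nuclear genes of the mitochondrial respiratory chain were followed in 2 human lung adenocarcinoma lines, HCC4006 and HCC827, which are known for activating EGFR mutations. Members were the table rows named as a numbered NDUFA, NDUFB, NDUFC, NDUFS or NDUFV gene, SDHA to SDHD or a UQCR gene. COX5 to COX8 and ATP5 genes were members too, with pseudogene names dropped. COX4I1, COX4I2 and COX7A2L have names that the rule does not match and are described apart. This rule uses names and no measured value, and it found 80 genes among 48405 rows. By complex they were 37 genes of complex I, 4 of complex II, 8 of complex III, 14 of complex IV and 17 of complex V. The groups were gefitinib-resistant HCC4006, HCC4006 kept in DMSO, gefitinib-resistant HCC827 and HCC827 kept in DMSO, with 2 libraries in each group and 8 in all. Resistant cultures were populations that grew in 3 µM gefitinib, a blocker of the EGFR kinase, and DMSO is its solvent. No source says whether the drug was present at harvest, nor whether both libraries of a group came from different cultures. A response to the drug and the resistant state therefore cannot be told apart, and p-values cover the spread of these libraries alone, which could be technical. The comparison asks whether resistance came with altered RNA for the respiratory chain. The DMSO groups, for which the labels give no gefitinib dose, are the comparison, and no short-exposure group is used here.

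Background on the chain is as follows. Complex I takes electrons from NADH and complex II takes them from succinate, both pass them to ubiquinone, complex III hands them to cytochrome c, and complex IV reduces oxygen. Complexes I, III and IV pump protons across the inner mitochondrial membrane, and complex V, the ATP synthase, lets them flow back to make ATP. A small set of core subunits is encoded in mitochondrial DNA and the rest in the nucleus, where the factors NRF1, GABP of the ETS family and YY1 are known regulators of many of these genes.

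Values are given as FPKM. By definition this is a fragment count divided by transcript length and by the fragments mapped in that library. Levels of different genes can thus be compared per length. Read totals are not given, so no counting interval can be set, and the 2 lines were tabled apart, so levels across lines are descriptions. Libraries held 17406 to 19333 rows above 0, with a median of 53.6 to 59.0 FPKM. This median is high, and a further scaling by the authors is possible, so absolute levels are uncertain. The 5 epithelial markers above 0 in all libraries, EPCAM, CDH1, KRT8, KRT19 and CLDN7, summed to 1689 to 1830.0 FPKM in resistant HCC4006, against 11624 to 16982 FPKM in its DMSO libraries. In HCC827 they summed to 11171 to 17872 FPKM in resistant libraries and 15418 to 16739 FPKM in DMSO libraries. KRT18 was below 1 FPKM or listed at 0 in every library. Among markers of other cells, PTPRC and CD3E (immune) and CDH5 (endothelial) were listed at 0 throughout. The immune list summed to 354 to 432 FPKM in resistant HCC4006 and 298 to 1126 FPKM in DMSO HCC4006, and to 339 to 356 FPKM in resistant HCC827 and 264 to 335 FPKM in DMSO HCC827, nearly all of it CD68. The fibroblast list summed to 96.6 to 119 FPKM in resistant HCC4006 and 71.7 to 122 FPKM in DMSO HCC4006, and to 13.4 to 18.1 FPKM in resistant HCC827 and 44.1 to 50.9 FPKM in DMSO HCC827, mostly COL1A1. The endothelial markers KDR and VWF reached at most 4.08 FPKM. Their part in the results was not tested. Less RNA per cell and fewer cells of a kind cannot be told apart in such bulk samples.

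Promoter sequence was read for the members, because shared motifs before the start are what this gene set is known for. RefSeq (GRCh38.p14) held a promoter window, 250 bases before to 50 bases after the first listed start, for 65 of the 80 members. The NRF1 motif, GCGCA followed by any base and then GCGC, searched like the others on both strands, stood in 16 of the 65 windows (24.6%), against 6.28% of 27326 windows of all genes and 8.57% of 15860 windows of protein-coding genes. The ETS motif CCGGAAGT was found in 9 members (13.8%), against 4.44% of all windows and 6.19% of protein-coding ones, and the YY1 motif AAGATGGCG in 8 members (12.3%), against 1.85% and 2.74% in the same order. At least 1 of these 3 motifs was present in 29 members (44.6%), against 11.5% of all windows and 16.0% of protein-coding ones. TATAAA was found in 7 members (10.8%), between the 11.9% of all windows and the 9.62% of protein-coding ones. The motifs searched do not contain one another. A match is a description of the letters and not of a factor bound there.

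The 60 bases around the motif are shown for 1 member of each complex, the member with the highest mean level among those with an NRF1 match, or, for complex IV, an ETS match. All 5 stretches lie wholly before the start and are written in the direction of the gene, with the motif in capitals.

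NDUFB4 (chr3:120596152-120596211, plus strand): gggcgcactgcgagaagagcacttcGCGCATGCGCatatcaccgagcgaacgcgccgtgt
SDHA (chr5:218129-218188, plus strand): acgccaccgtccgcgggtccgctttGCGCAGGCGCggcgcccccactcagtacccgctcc
UQCRC1 (chr3:48609659-48609718, minus strand): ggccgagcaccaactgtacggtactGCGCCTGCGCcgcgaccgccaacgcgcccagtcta
COX8A (chr11:63974560-63974619, plus strand): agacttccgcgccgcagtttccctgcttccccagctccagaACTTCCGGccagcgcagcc
ATP5I (chr4:674461-674520, minus strand): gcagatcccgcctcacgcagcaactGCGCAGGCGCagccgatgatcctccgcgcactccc

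The first base of the motif lay 159 bases before the start in NDUFB4, 166 in SDHA, 47 in UQCRC1, 19 in COX8A and 219 in ATP5I. NDUFB4 is an accessory subunit of the membrane arm of complex I, SDHA the flavoprotein that oxidises succinate, UQCRC1 a core subunit of complex III, COX8A a small subunit of complex IV and ATP5I the e subunit of the ATP synthase. The NDUFB4 window held 3 NRF1 matches and the SDHA window 4. Among members with values above 0 in all 8 libraries, the 14 with an NRF1 match had a median log2 fold change, resistant over DMSO, of −0.02 in HCC4006 and 0.13 in HCC827, and the 38 with a window but no match had −0.11 and 0.14 in the same order of lines.

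Of the 80 members, 63 were above 0 in all 8 libraries, and these carry the description by complex. They were 31 members of complex I, 2 of complex II, 8 of complex III, 7 of complex IV and 15 of complex V. Most were highly expressed genes, with ATP5S (mean 67.7 FPKM) and ATP5L2 (mean 104 FPKM) well below the others. The median member stood at percentile 92.9 to 95.1 among rows above 0, and the 63 together made up 0.956% to 1.80% of all FPKM. By median of the members' mean levels over 8 libraries, complex IV came first with 1806 FPKM and complex V next with 1478 FPKM, while complex II had 1147 FPKM, complex III 806 FPKM and complex I 757 FPKM. These are levels per length of RNA and not of protein.

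ATP5B, the catalytic beta subunit of the ATP synthase, had the highest mean level of all 63, 3762 FPKM, with a range of 2414 to 5818 FPKM. ATP5S, which encodes coupling factor B and is not a core subunit, had the lowest, 67.7 FPKM, with a range of 28.1 to 124.6 FPKM. In complex I the highest member was NDUFA4 with a mean of 2197 FPKM, a protein now placed in complex IV, and the lowest was NDUFA7, an accessory subunit, with 314 FPKM. The fold range was smaller within complex I than within complex V, where ATP5S and ATP5L2 (104 FPKM) lay far below the others. Apart from them the lowest complex V mean was 681 FPKM, for ATP5D, so the wider range rests on these genes. SDHA averaged 1573 FPKM and SDHC, a membrane anchor of complex II, 722 FPKM. UQCRH, the hinge subunit near cytochrome c, led complex III with a mean of 2632 FPKM and UQCR11, its smallest subunit, was lowest with 349 FPKM. In complex IV the small subunit COX7C led with 3233 FPKM and COX5A, a matrix-side subunit, was lowest with 731 FPKM. Close neighbours in these orders overlapped widely in their ranges over the 8 libraries. SDHA has near-identical pseudogenes, and UQCRH, COX7C and many ATP5 genes have processed copies, so shared reads may enter their values.

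**Figure D1:**
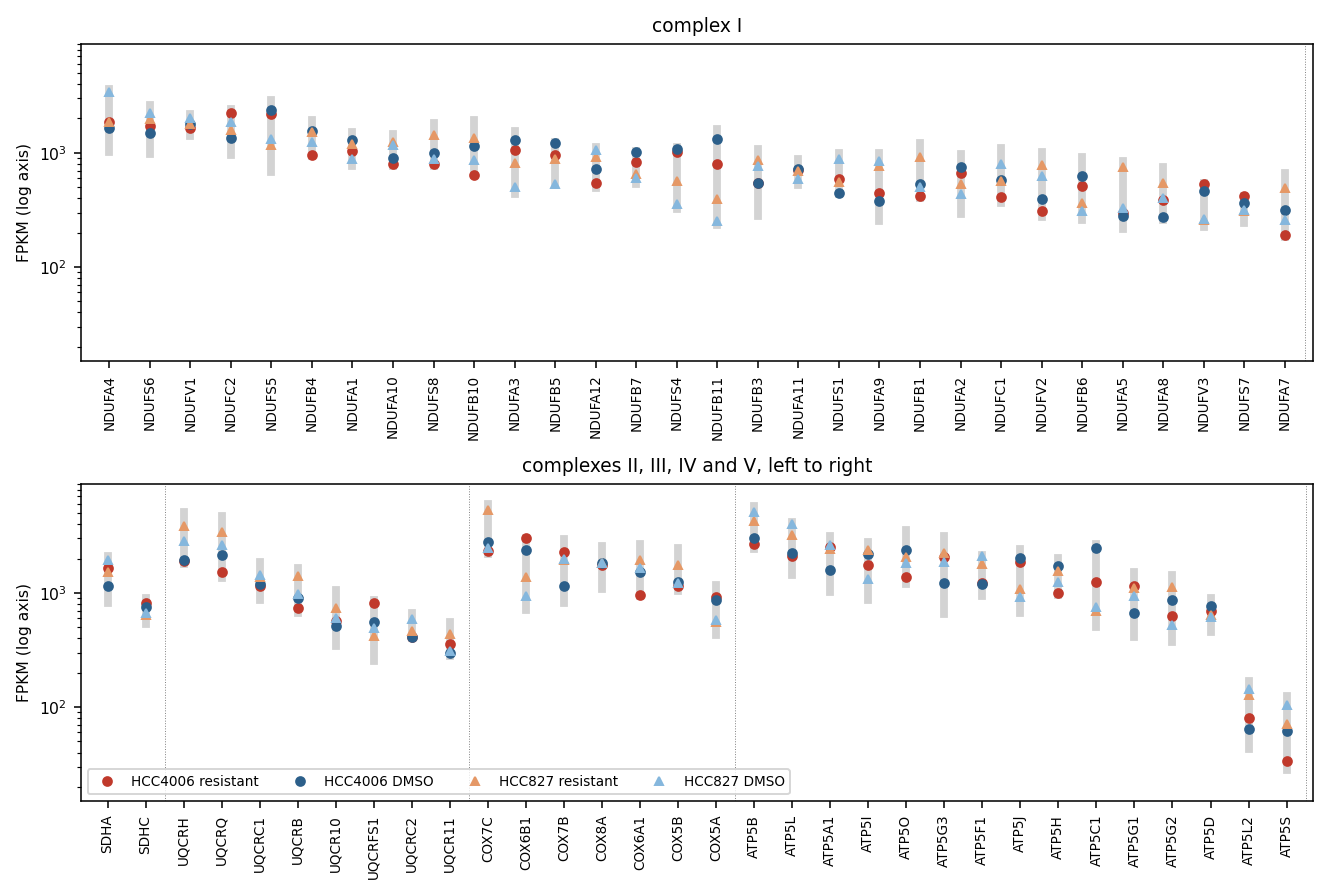
Level of members above 0 in all 8 libraries, in FPKM on a log axis, grouped by complex and ordered by mean. Markers are group means (n = 2 libraries each) and the grey bars span the lowest to the highest library. Most members lie between about the level of NDUFA7 (mean 314 FPKM) and that of ATP5B (mean 3762 FPKM), with ATP5L2 and ATP5S below.

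The other 17 members were listed at 0 in at least 1 group, and no fold change is given against such a group. Listed at 0 in all 8 libraries were COX6A2, COX7A1, COX7B2, COX8C, COX6C, ATP5E and ATP5J2. The muscle isoforms COX6A2 and COX7A1 and the testis isoforms COX7B2 and COX8C are background examples of genes with narrow expression, whereas COX6C, ATP5E (the epsilon subunit) and ATP5J2 (the f subunit) are used by every respiring cell. A 0 in these tables can thus be a failed estimate and was read as no measurement. The median locus in the tables was 15.2 kb wide for the 63 members above 0, 58.9 kb for the 10 members at 0 in some groups and 174 kb for the 7 at 0 throughout.

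In some groups only, 10 members were listed at 0. NDUFA13, NDUFA6 and SDHD were measured in 1 group each. NDUFA13, a membrane-arm subunit, was listed at 0 in resistant HCC4006 and had 2117 and 1548 FPKM in DMSO HCC4006. NDUFA6, a subunit at the base of the matrix arm, had 1025 and 839 FPKM in resistant HCC4006 and was listed at 0 in DMSO HCC4006. SDHD, the other membrane anchor of complex II, had 356 and 795 FPKM in resistant HCC4006 and was listed at 0 elsewhere, in a row that joins it with BCO2 and TEX12. DMSO HCC827 alone had 0 for the complex I members NDUFB2, NDUFB8, NDUFB9 and NDUFS3, for SDHB, the iron-sulfur subunit of complex II, and for COX7A2 and COX6B2. SDHB, for example, had 719 and 1268 FPKM in resistant HCC827, with 913 and 829 FPKM in resistant HCC4006 and 762 and 1080.4 FPKM in DMSO HCC4006. COX7A2 had 1264 and 3341 FPKM in resistant HCC827 beside 0 in DMSO HCC827. By group, of all 80 members, 8 were at 0 in resistant HCC4006, 9 in DMSO HCC4006, 10 in resistant HCC827 and 17 in DMSO HCC827. Each count includes the 7 members at 0 throughout. Those 7 and COX6B2 never reached 50 FPKM, so these counts and the shares that follow cover unlike sets. Among all 12786 rows that reached 50 FPKM somewhere, 3.16% were at 0 in resistant HCC4006, 7.76% in DMSO HCC4006, 3.74% in resistant HCC827 and 8.42% in DMSO HCC827, so the DMSO groups held more zeros across the tables. In a fit that kept rows listed at 0, 4 members were called in HCC4006 (9.36% of all rows), 6 in HCC827 (6.8%) and 10 for the difference between the lines (12.1%), each of them among these 10. Such calls set a 0 against a level, except NDUFS3 in HCC4006, which was above 0 in all 4 libraries there.

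The 63 members moved together between the 2 libraries of 1 group in each line, by more than the medians between treatments given further on. In resistant HCC827, 61 of 63 members were higher in library B than in library A, by a median of 0.83 on the log2 scale, while the median over all 14642 rows above 0 in all 8 libraries was 0.00. The summed level of the 63 was 59535 and 104971 FPKM in those resistant libraries, against 73320 and 75736 FPKM in DMSO HCC827. The DMSO sums thus lay between the 2 resistant sums. In DMSO HCC4006, 52 of 63 members were higher in library B, by a median of 0.57, with −0.02 over all rows, and the sums were 72363 and 65889 FPKM in resistant HCC4006 and 58888 and 87222 FPKM in DMSO HCC4006. Here the resistant sums lay between the DMSO sums. Within resistant HCC4006 the median difference was −0.15 and within DMSO HCC827 it was −0.01.

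Transcript length and level were set beside these library differences. The median member's transcript was 712 bases long, 47 of the 63 were in the shortest quintile of 9091 rows with a known length, and 58 were in the highest quintile by level. In resistant HCC827, library B over library A differed by a median of 0.22 in the shortest quintile, −0.55 in the longest and 0.48 in the 620 rows that were both short and high. In DMSO HCC4006 library B over library A differed by 0.017 in the shortest quintile, −0.083 in the longest, 0.24 in the highest quintile by level and 0.25 in the same 620 rows, so there level moved with the difference and length hardly did. The part of length and level in the members' differences was not tested.

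**Figure D2:**
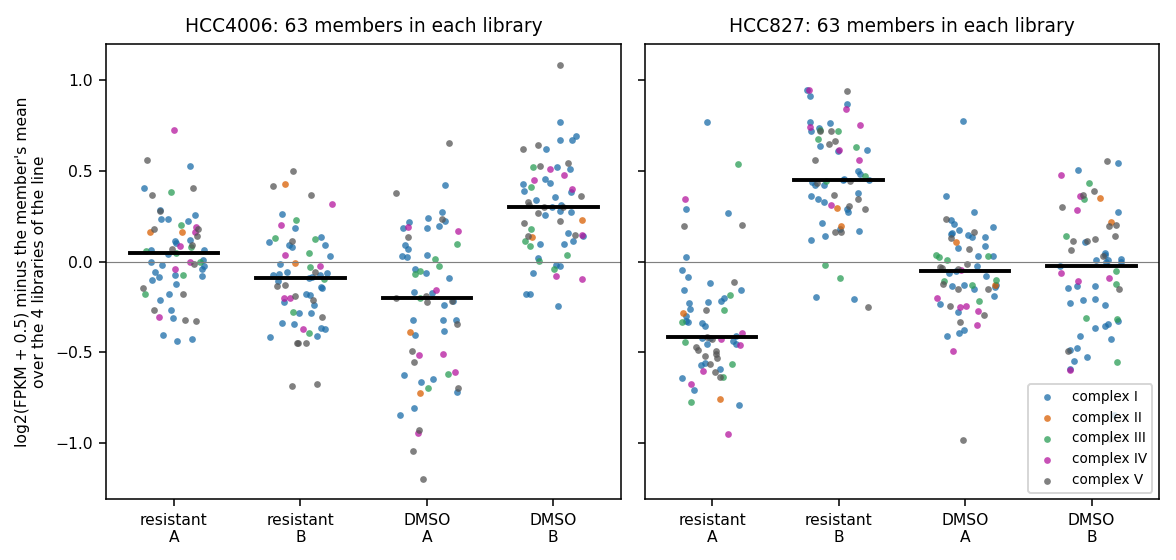
Deviation of each of the 63 members from its own mean over the 4 libraries of the line, in log2(FPKM + 0.5), with resistant libraries left of DMSO libraries. Points are members coloured by complex and black bars are medians. Resistant HCC827 library B stands above library A (median difference 0.83), and DMSO HCC4006 library B above library A (median difference 0.57).

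In HCC4006, resistant over DMSO, the respiratory chain did not separate as a block: the median log2 fold change of the 63 members was −0.11, with −0.04 over all rows. A member was called at an adjusted p below 0.05 in limma over the whole table. Of the 70 members fitted in this line 0 were called, with 88 of 16484 rows called in all, 0.534%, and 6 of the 63 had an unadjusted p below 0.05 with 16.4% of all rows. Both resistant libraries stood above both DMSO libraries for 13 of the 63 members, with 22.1% of all rows, and below them for 19, with 29% of all rows. For the other 31 the groups overlapped. A log2 fold change beyond 1 either way was found for 1 of the 63, COX7B, with 16.3% of all rows. NDUFS3 and COX6B2, fitted in this line but listed at 0 in DMSO HCC827, also lay beyond 1 and are given below. Median log2 fold changes were −0.15 for complex I, 0.38 for complex II, −0.01 for complex III, 0.03 for complex IV and −0.13 for complex V. DMSO library A or B decided several of these values. Without DMSO library A, 14 members were called beside 20.7% of all rows, and without DMSO library B, 21 beside 38.1%, where the single library left is assumed to vary like the resistant group. The complex I median was −0.33 without DMSO library A and 0.04 without library B, and the complex IV median −0.37 and 0.53 in the same order.

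Within complex I in HCC4006, 5 members stood higher without overlap, 12 lower and 14 overlapped. NDUFC2, a membrane-arm accessory subunit, had 2433 and 2021 FPKM in the resistant libraries, against 963 and 1711 FPKM in the DMSO libraries (log2 fold change 0.79, SE 0.36, adjusted p = 0.357). Both resistant values exceeded both DMSO values, which themselves were far apart. The NDUFC2 row is joined with KCTD14. NDUFA8, on the intermembrane-space side, had 432 and 347 FPKM in the resistant libraries, against 260.3 and 288 FPKM in the DMSO libraries (log2 fold change 0.50, SE 0.24, adjusted p = 0.385). At the other end NDUFB10, also of the membrane arm, had 646 and 641 FPKM in the resistant libraries, against 979 and 1313 FPKM in the DMSO libraries (log2 fold change −0.82, SE 0.25, adjusted p = 0.231). The resistant libraries were nearly equal and below both DMSO libraries. NDUFA7 had 181 and 202 FPKM in the resistant libraries, against 329 and 302 FPKM in the DMSO libraries (log2 fold change −0.72, SE 0.23, adjusted p = 0.239), again without overlap. Core subunits encoded in the nucleus hold the redox centres. NDUFS1, the large iron-sulfur subunit of the NADH-oxidising module, was higher without overlap (626 and 564 FPKM in resistant libraries, 433 and 452 FPKM in DMSO libraries, log2 fold change 0.42). NDUFV2, its partner in the same module, was lower without overlap (−0.37). NDUFS7, which carries the last iron-sulfur cluster, was higher without overlap (0.19), while NDUFV1, which binds NADH, and NDUFS8 overlapped (−0.12 for NDUFV1, −0.30 for NDUFS8). NDUFS3, the core subunit listed at 0 in DMSO HCC827, had 374 and 299 FPKM in the resistant libraries, against 894 and 949.6 FPKM in the DMSO libraries (log2 fold change −1.46, SE 0.24, adjusted p = 0.0895), in a row it shares with PTPMT1.

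For complex II in HCC4006, SDHA had 1512 and 1820.2 FPKM in the resistant libraries, against 818 and 1483 FPKM in the DMSO libraries (log2 fold change 0.59, SE 0.36, adjusted p = 0.474), without overlap but with the higher DMSO library close to the lower resistant one. SDHC overlapped, with 872 and 774 FPKM in the resistant libraries, against 593 and 911 FPKM in the DMSO libraries (log2 fold change 0.16), and SDHB overlapped as well (−0.06). In complex III, 2 members were higher, 2 lower and 4 overlapped. UQCRFS1, the Rieske iron-sulfur protein, had 863 and 775 FPKM in the resistant libraries, against 408 and 701 FPKM in the DMSO libraries (log2 fold change 0.61, SE 0.33, adjusted p = 0.428). It was higher without overlap, as was UQCR11 (0.24). UQCRQ, a small subunit by the ubiquinone pocket, had 1706 and 1365 FPKM in the resistant libraries, against 1732 and 2578 FPKM in the DMSO libraries (log2 fold change −0.47, SE 0.31, adjusted p = 0.498). UQCRB, another subunit there, was also lower without overlap (−0.28). UQCRH had 1988 and 1789 FPKM in the resistant libraries, against 1822 and 2066 FPKM in the DMSO libraries (log2 fold change −0.04), with overlapping groups.

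In complex IV of HCC4006, COX7B had the largest positive value of the 63 members, with 2609.7 and 1966 FPKM in the resistant libraries, against 819.7 and 1474 FPKM in the DMSO libraries (log2 fold change 1.04, SE 0.37, adjusted p = 0.277, 95% interval 0.08 to 2.00). It was higher without overlap, as was COX6B1, the cytosolic-side subunit at the dimer contact (2963 and 3042 FPKM in resistant libraries, 1863 and 2929 FPKM in DMSO libraries, 0.36). COX6A1, the non-muscle form of subunit VIa, was lower without overlap, with 978 and 931 FPKM in the resistant libraries, against 1354 and 1720.1 FPKM in the DMSO libraries (log2 fold change −0.68, SE 0.25, adjusted p = 0.284). COX7C overlapped (−0.24), and so did COX8A (0.03) and COX7A2 (0.16). Among isoform pairs, the ubiquitous partner was the measured one: COX6A2, COX7A1, COX7B2 and COX8C were all listed at 0. COX6B2, the testis form of subunit VIb, was the exception, with 2.47 and 4.15 FPKM in the resistant libraries, against 12.9 and 22.95 FPKM in the DMSO libraries (log2 fold change −2.25, SE 0.49, adjusted p = 0.139). It was lower without overlap at levels far below those of COX6B1.

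Complex V in HCC4006 held the largest negative value of the 63. ATP5C1, the gamma subunit that forms the turning central stalk, had 1404 and 1102 FPKM in the resistant libraries, against 2280.2 and 2704 FPKM in the DMSO libraries (log2 fold change −0.997, SE 0.26, adjusted p = 0.185, 95% interval −1.68 to −0.31). Both resistant libraries were far below both DMSO libraries, and ATP5C1 was among the 5 members called both without DMSO library A and without DMSO library B, the others being COX6B2, NDUFA7, NDUFB10 and NDUFS3. Called in both were 12.7% of all rows, beside these 5 of 70 members. ATP5H, of the peripheral stalk, had 1032 and 949.8 FPKM in the resistant libraries, against 1420.0 and 2021 FPKM in the DMSO libraries (log2 fold change −0.77, SE 0.28, adjusted p = 0.276), and ATP5S had 40.1 and 28.1 FPKM in resistant libraries and 71.8 and 52.7 FPKM in DMSO libraries (−0.86). Both were lower without overlap. The catalytic pair differed: ATP5A1, the alpha subunit, was higher without overlap (2497 and 2587 FPKM in resistant libraries, 1018 and 2146 FPKM in DMSO libraries, 0.78), while ATP5B overlapped (−0.14). ATP5G1, ATP5G2 and ATP5G3 encode the same mature subunit c of the membrane ring. ATP5G1 was higher, with 1119 and 1191 FPKM in the resistant libraries, against 409 and 929 FPKM in the DMSO libraries (log2 fold change 0.90, SE 0.43, adjusted p = 0.38), and so was ATP5G3, with 2198 and 1919 FPKM in the resistant libraries, against 649 and 1791 FPKM in the DMSO libraries (log2 fold change 0.93, SE 0.52, adjusted p = 0.438). ATP5G2 was lower without overlap, with 615 and 651 FPKM in the resistant libraries, against 871 and 867 FPKM in the DMSO libraries (log2 fold change −0.46, SE 0.22, adjusted p = 0.375).

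In HCC827 the resistant libraries disagreed with each other for nearly the whole chain, so most groups overlapped. The median log2 fold change of the 63 members was 0.12, with −0.10 over all rows. By limma 0 of 63 members were called, with 19 of 15917 rows called in all, 0.119%, and 3 had an unadjusted p below 0.05 with 12.8% of all rows. Both resistant libraries stood above both DMSO libraries for 10 members, with 19.9% of all rows, and below them for 4, with 26.4% of all rows. The groups overlapped for 49. A log2 fold change beyond 1 was found for 3 members, NDUFA5, ATP5G2 and COX7C, with 15.6% of all rows. Medians were 0.14 for complex I, −0.27 for complex II, 0.22 for complex III, 0.16 for complex IV and 0.01 for complex V. The sign of each turned on resistant library A or B: the median over all 63 was 0.55 without library A and −0.42 without library B. In the same order it was 0.55 and −0.23 for complex I, 0.11 and −0.66 for complex II, 0.60 and −0.37 for complex III, 0.69 and −0.43 for complex IV, and 0.44 and −0.49 for complex V. Without DMSO library A the complex V median was −0.13, and without DMSO library B the complex I median was −0.0056.

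Complex I in HCC827 had 7 members higher without overlap, 2 lower and 22 overlapping. NDUFA5, an accessory subunit of the matrix arm, had the largest value of all members, with 842 and 673 FPKM in the resistant libraries, against 379 and 274 FPKM in the DMSO libraries (log2 fold change 1.22, SE 0.35, adjusted p = 0.245, 95% interval 0.39 to 2.05). It is an exception to the library pattern, since resistant library A was the higher one. NDUFA7 had 317 and 664 FPKM in the resistant libraries, against 283 and 235 FPKM in the DMSO libraries (log2 fold change 0.83, SE 0.43, adjusted p = 0.463), higher without overlap but with resistant values far apart. NDUFB1, NDUFB5, NDUFA3, NDUFS4 and NDUFS8 were the other 5 higher members (0.82 for NDUFB1, 0.72 for NDUFB5, 0.67 for NDUFA3, 0.67 for NDUFS4 and 0.65 for NDUFS8). NDUFB5 belongs to the membrane arm and had 819 and 931 FPKM in the resistant libraries, against 518 and 543 FPKM in the DMSO libraries, with little spread in either group. NDUFA4 was lower, with 1527 and 2176 FPKM in the resistant libraries, against 3196 and 3625 FPKM in the DMSO libraries (log2 fold change −0.90, SE 0.40, adjusted p = 0.402), and NDUFS1 was lower, with 507 and 604 FPKM in the resistant libraries, against 776 and 988 FPKM in the DMSO libraries (log2 fold change −0.66, SE 0.34, adjusted p = 0.463). For both, each resistant library was below each DMSO library. The core subunits NDUFV1, NDUFV2 and NDUFS7 overlapped (−0.21, 0.28 and −0.04 in that order).

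SDHA and SDHC both overlapped in HCC827. SDHA had 986 and 2043 FPKM in the resistant libraries, against 1797 and 2121 FPKM in the DMSO libraries (log2 fold change −0.46, SE 0.45, adjusted p = 0.691), and SDHC had a log2 fold change of −0.09, which became 0.03 when libraries were scaled to the same median. In complex III only UQCRC2, a core subunit, was free of overlap, with 436 and 492 FPKM in the resistant libraries, against 527 and 666 FPKM in the DMSO libraries (log2 fold change −0.36, SE 0.33, adjusted p = 0.681). It was lower in both resistant libraries. UQCRB, UQCR11 and UQCRFS1 overlapped (0.52 for UQCRB, 0.45 for UQCR11 and −0.33 for UQCRFS1). COX7C was the member of complex IV free of overlap, with 4573 and 6038 FPKM in the resistant libraries, against 2564 and 2384 FPKM in the DMSO libraries (log2 fold change 1.09, SE 0.41, adjusted p = 0.337, 95% interval 0.14 to 2.04). Even its lower resistant library was well above DMSO, in a row joined with snoZ39. Over rows with 1 gene name only, the complex IV median in HCC827 was 0.04, against 0.16 over all 7 members. COX5B, COX7B and COX8A overlapped (0.42 for COX5B, −0.20 for COX7B and −0.11 for COX8A). COX7B shows how wide that spread was, with 918 and 2995 FPKM in the resistant libraries, against 1468 and 2469 FPKM in the DMSO libraries.

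In complex V of HCC827, ATP5G2 and ATP5I were higher without overlap, ATP5S was lower and 12 members overlapped. ATP5G2 had 852 and 1423 FPKM in the resistant libraries, against 375 and 668 FPKM in the DMSO libraries (log2 fold change 1.14, SE 0.44, adjusted p = 0.348, 95% interval 0.11 to 2.16). ATP5I had 1947 and 2801 FPKM in the resistant libraries, against 1787 and 863 FPKM in the DMSO libraries (log2 fold change 0.91, SE 0.47, adjusted p = 0.459). The lower resistant value of each was above the higher DMSO value by a narrower margin than the spread within the groups. ATP5S had 70.3 and 71.2 FPKM in the resistant libraries, against 82.6 and 124.6 FPKM in the DMSO libraries (log2 fold change −0.52, SE 0.39, adjusted p = 0.606). ATP5G1, ATP5G3, ATP5A1, ATP5B, ATP5C1 and ATP5L, the g subunit, all overlapped (0.14, 0.15, −0.14, −0.32, −0.19 and −0.35 in that order).

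**Figure D3:**
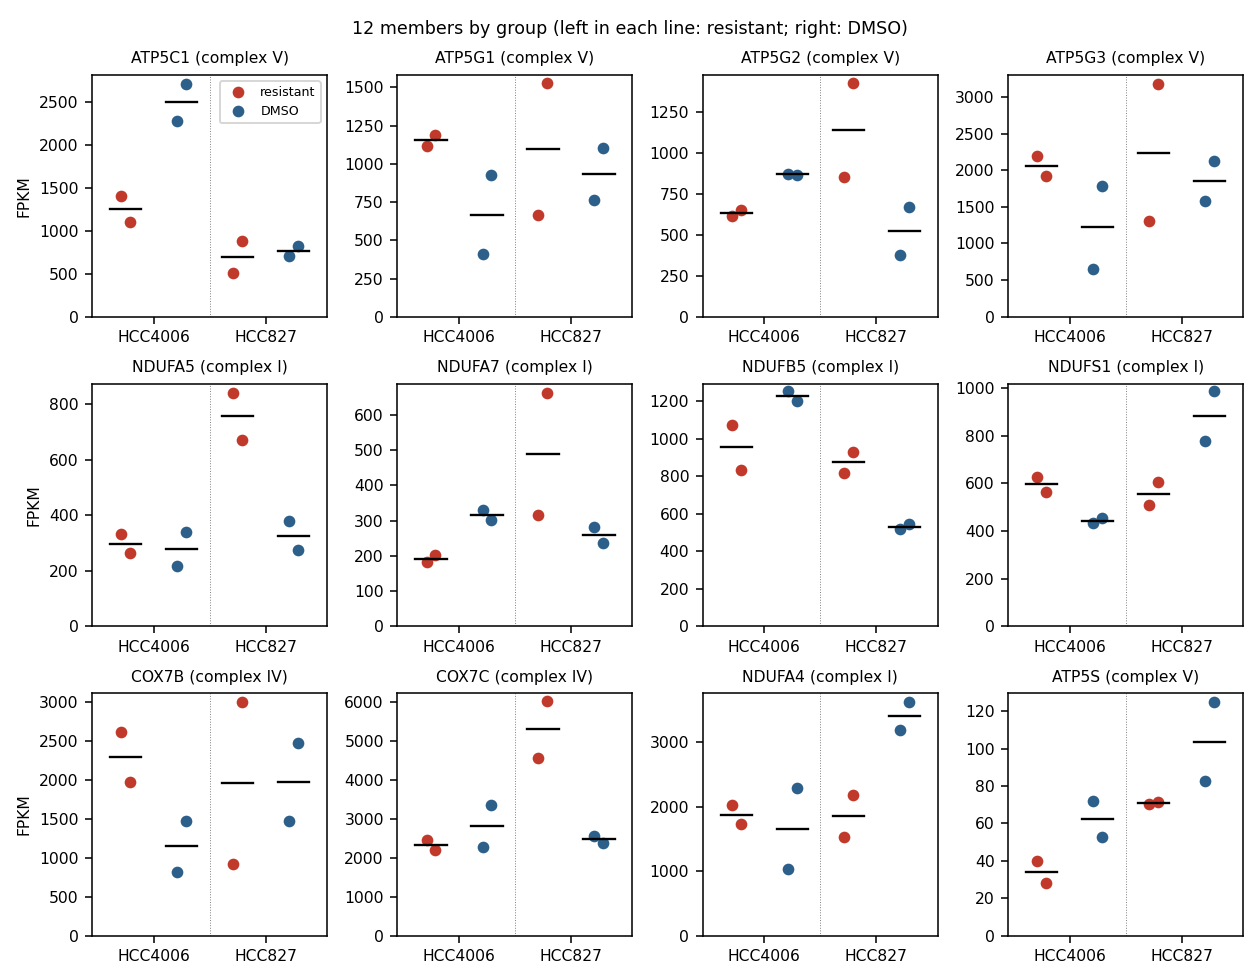
FPKM of 12 members with large values in either line, chosen after their values were seen; each dot is a library, black lines are means (n = 2), and in each line the resistant group is left of DMSO. ATP5C1 separates the groups in HCC4006 (log2 fold change −0.997) and overlaps in HCC827 (−0.19), and ATP5G2, NDUFA7, NDUFB5 and NDUFS1 separate them in both lines in opposite directions.

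The difference between the lines, the HCC827 change minus the HCC4006 change, was tested over all 8 libraries. Of the 63 members 0 were called by limma, with 212 of 14642 rows called, 1.45%, and 7 had an unadjusted p below 0.05, with 19% of all rows. Free of overlap in both lines but in opposite directions were 4 members, NDUFA7, NDUFB5, NDUFS1 and ATP5G2, with 15% of all rows. ATP5S was lower in both, the only member free of overlap in the same direction, with 9.29% of all rows. ATP5G2 had the largest difference, 1.59, SE 0.52, adjusted p = 0.164. It was lower in resistant HCC4006 and higher in resistant HCC827. NDUFA7 had a difference of 1.55, SE 0.52, adjusted p = 0.17, and NDUFB5 one of 1.10, SE 0.38, adjusted p = 0.181, with the same pair of directions. NDUFS1 went the other way, higher in resistant HCC4006 and lower in resistant HCC827, with a difference of −1.08, SE 0.38, adjusted p = 0.185. COX7C, free of overlap in HCC827 only, had 1.33, SE 0.47, adjusted p = 0.189, and COX7B, free of overlap in HCC4006 only, had −1.24, SE 0.81, adjusted p = 0.44. None of these differences passed the adjusted threshold.

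**Figure D4:**
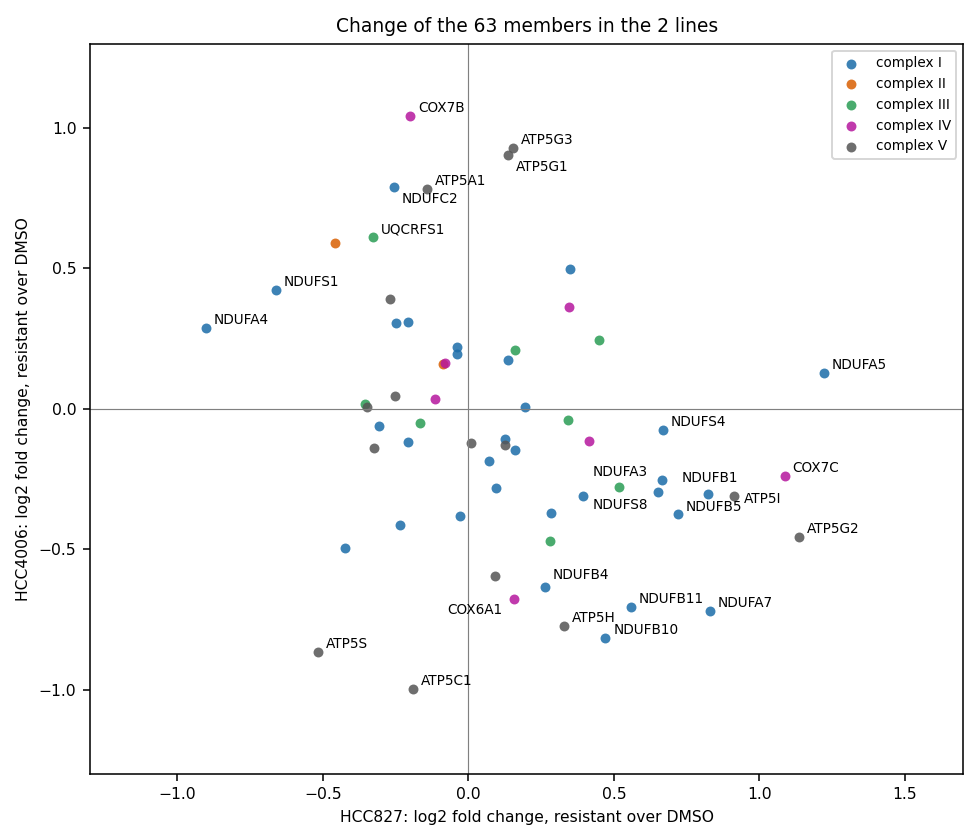
Log2 fold change, resistant over DMSO, of the 63 members in HCC827 (x axis) and HCC4006 (y axis), coloured by complex; members with large values are named. ATP5G2, NDUFA7 and NDUFB5 lie at lower right and NDUFS1 at upper left, the members free of overlap in both lines in opposite directions, while ATP5S lies at lower left.

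As descriptions, 2 ratios within a library were taken after the values were seen. A shift of a library that differs between members moves such ratios too. ATP5G2 made up 15.6% and 17.3% of the summed FPKM of the 3 subunit c genes in resistant HCC4006, against 45.1% and 24.2% in DMSO HCC4006. In HCC827 its share was 30.2% and 23.2% in resistant libraries, against 13.8% and 17.1% in DMSO libraries. The groups were apart in both lines, with the lower share in resistant HCC4006 and the higher in resistant HCC827. ATP5G3 supplied the largest share in every library but DMSO HCC4006 library A, 46.2% to 58.0% in those 7. Its row is joined with a Y RNA, and without strand reads of overlapping genes cannot be separated.

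Complex IV made up 18.0% and 17.9% of the summed FPKM of the 63 members in resistant HCC4006, against 16.1% and 16.3% in DMSO HCC4006. In HCC827 it made up 16.8% and 18.6% in resistant libraries, against 13.1% and 15.4% in DMSO libraries. Its share was thus higher without overlap in resistant cells of both lines, 1 of 5 complexes looked at, with NDUFA4 counted in complex I. NDUFA4, now placed in complex IV, had 1527 and 2176 FPKM in resistant HCC827, against 3196 and 3625 FPKM in DMSO HCC827. The gap between the HCC827 shares therefore depends on where NDUFA4 is counted. The complex II share was also free of overlap in both lines, but in opposite directions. It was 3.29% and 3.94% in resistant and 2.40% and 2.74% in DMSO HCC4006. In HCC827 it was 2.55% and 2.65% in resistant and 3.26% and 3.80% in DMSO libraries. Complexes III and V were free of overlap in HCC827 only. With COX7C left out the share of complex IV was 15.1% in both resistant HCC4006 libraries, against 12.7% and 12.9% in DMSO HCC4006. In HCC827 it was then 9.87% and 13.6% in resistant libraries and 10.0% and 12.7% in DMSO libraries, which overlap.

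Between the lines, as a description across separate tables, all 4 HCC827 libraries were above all 4 HCC4006 libraries for 5 members, with 9.19% of all rows, and below them for 8, with 12% of all rows. Higher in HCC827 were NDUFV2, NDUFA9, NDUFA10, UQCRH and UQCRC2. NDUFV2 had 535 and 1024 FPKM in resistant and 743 and 498 FPKM in DMSO HCC827, and 340.5 and 272 FPKM in resistant and 419 and 371 FPKM in DMSO HCC4006. Lower in HCC827 were NDUFA3, NDUFB7, NDUFB11, NDUFS4, NDUFS5, NDUFV3, ATP5C1 and ATP5J, a peripheral-stalk subunit. NDUFB11, an X-linked membrane-arm subunit, was the widest apart by the mean of each line, with 276 and 507 FPKM in resistant and 278 and 231 FPKM in DMSO HCC827, and 753 and 833 FPKM in resistant and 1038 and 1609 FPKM in DMSO HCC4006. NDUFS4, an accessory subunit of the NADH-oxidising arm, had the widest gap between the nearest libraries of the lines, with 549.8 and 585 FPKM in resistant and 394 and 323 FPKM in DMSO HCC827, against 1096 and 953 FPKM in resistant and 1118 and 1036 FPKM in DMSO HCC4006.

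The subunits encoded in mitochondrial DNA had a higher median log2 fold change than the 63 nuclear members in HCC4006, 1.44 against −0.11. In HCC827 the medians were close, 0.17 against 0.12. The difference between these 2 sets of genes was not tested. Of 13 such subunit genes looked for, 12 were found on 10 rows, MT-ATP8 was not found, and none is a member by name. MT-ND4 with MT-ND4L and MT-CO3 with MT-ATP6 share a row. Genes on a shared row have the same values and are each counted in the medians and counts of genes. In HCC4006 all 12 had positive log2 fold changes, median 1.44, and 10 were higher without overlap, with 22.1% of all rows, but 0 passed the test (lowest adjusted p = 0.262). MT-CO1, the catalytic subunit of complex IV, had 6892 and 29333 FPKM in the resistant libraries, against 5433 and 4065 FPKM in the DMSO libraries (log2 fold change 1.60, SE 0.73, adjusted p = 0.361). MT-ND1, a membrane core subunit of complex I, had 4912 and 15871 FPKM in the resistant libraries, against 2640.1 and 2650.4 FPKM in the DMSO libraries (log2 fold change 1.74, SE 0.60, adjusted p = 0.262). Resistant library B was the highest for every one of these rows and stood far above resistant library A. Without it the median was 0.49, with 11 of 12 positive. The 10 rows summed to 89977 and 312466 FPKM in resistant HCC4006, against 61293 and 75518 FPKM in DMSO HCC4006, or 1.24 and 4.74 times the summed nuclear members in resistant libraries, against 1.04 and 0.866 times in DMSO libraries.

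In HCC827 11 of 12 were positive, median 0.17, and 0 were free of overlap. The median was −0.43 without DMSO library A and 1.03 without DMSO library B, whose sums were 48298 and 149615 FPKM beside 102075 and 105451 FPKM in the resistant libraries. MT-CYB, the mitochondrially encoded core of complex III, had 2916 and 2717 FPKM in the resistant libraries, against 1892 and 5925 FPKM in the DMSO libraries (log2 fold change −0.25, SE 0.58, adjusted p = 0.878). The libraries in which these rows ran high, resistant HCC4006 B and DMSO HCC827 B, were not those in which the nuclear members did, resistant HCC827 B and DMSO HCC4006 B.

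**Figure D5:**
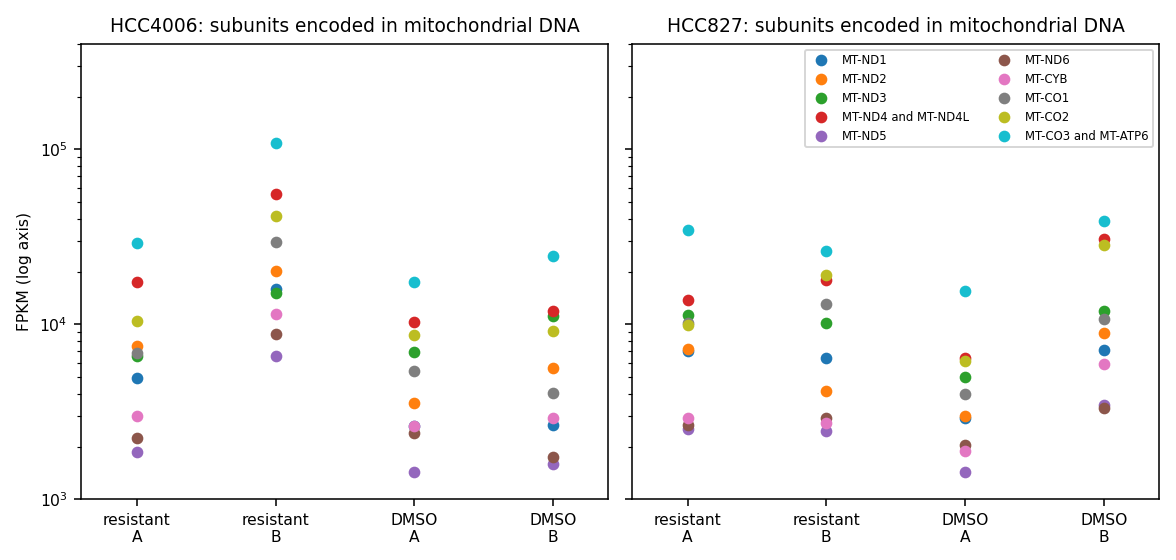
FPKM, on a log axis, of the 10 rows that hold 12 subunit genes of mitochondrial DNA in each library, with resistant libraries left of DMSO libraries. In HCC4006 the resistant library B is highest for every row (sum 312466 FPKM, against 89977 FPKM in resistant library A), and in HCC827 the DMSO libraries A and B are far apart (sums 48298 and 149615 FPKM).

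Genes around the chain were taken in 7 further lists of nuclear genes, chosen with earlier results of these data known, and 0 of those fitted were called in either line. Respiratory genes that the naming rule misses had medians of 0.00 in HCC4006 (4 of 8 positive) and −0.02 in HCC827 (3 of 8). CYCS, cytochrome c, had 2006 and 1823 FPKM in the resistant libraries, against 785 and 1679 FPKM in the DMSO libraries in HCC4006 (0.74), and 1016 and 1891 FPKM in the resistant libraries, against 2545 and 2453 FPKM in the DMSO libraries in HCC827 (−0.85). It was higher without overlap in resistant HCC4006 and lower without overlap in resistant HCC827, like NDUFS1. COX4I1, the largest nuclear subunit of complex IV, overlapped in HCC4006 (0.04) and was higher without overlap in HCC827, with 2884 and 6285 FPKM in the resistant libraries, against 2476 and 2359.6 FPKM in the DMSO libraries (0.82). ATPIF1, the inhibitor of the ATP synthase, was lower without overlap in HCC4006 (−0.65) and overlapped in HCC827 (0.44). COX7A2L, which joins complexes into supercomplexes, was lower without overlap in resistant HCC4006 (−0.31) and higher without overlap in resistant HCC827 (0.24). NDUFAB1, CYC1, USMG5 and C14orf2 overlapped in both lines. COX4I2, the hypoxic isoform, was listed at 0 throughout, and NDUFA4L2 in 4 of 8 libraries.

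Assembly factors were described by the median and by the lowest and highest log2 fold change of each list. Medians in HCC4006 were 0.01 for complex I, −0.17 for complexes II and III, −0.05 for complex IV and 0.10 for complex V. In HCC827 they were −0.21, −0.44, −0.18 and −0.65 in the same order. Without resistant library A of HCC827, the median was 0.01 for complexes II and III and 0.01 for complex IV. For complex I, ECSIT (−0.61) and C20orf7 (1.23) were the lowest and highest in HCC4006, and NDUFAF2 (−0.49) and NDUFAF1 (0.21) in HCC827. C6orf57, the complex II assembly factor now called SDHAF4, was the lowest of its list in HCC4006, with 6.605 and 8.19 FPKM in the resistant libraries, against 26.8 and 19.4 FPKM in the DMSO libraries (log2 fold change −1.57, SE 0.39, adjusted p = 0.167), and the highest in HCC827, with 48.2 and 96.8 FPKM in the resistant libraries, against 20.5 and 16.2 FPKM in the DMSO libraries (log2 fold change 1.88, SE 0.50, adjusted p = 0.215). The groups were apart in both lines. ACN9 was the lowest of that list in HCC827 (−1.10), and its highest in HCC4006 (0.18). For complex IV, COX19, a copper-handling factor, was lowest in HCC4006, with 278 and 269 FPKM in the resistant libraries, against 952 and 807 FPKM in the DMSO libraries (log2 fold change −1.68, SE 0.23, adjusted p = 0.0729), and highest in HCC827 (0.96), in a row it shares with another gene. COX18, which inserts a mitochondrially encoded subunit, was highest in HCC4006 (0.98). SCO1, which delivers copper, was lowest in HCC827, with 151 and 204 FPKM in the resistant libraries, against 562 and 574 FPKM in the DMSO libraries (log2 fold change −1.69, SE 0.34, adjusted p = 0.133). COX10, which makes a precursor of heme A, came next (log2 fold change −1.34, SE 0.38, adjusted p = 0.245). Of complex V, ATPAF1 and TMEM70 could be fitted, with −0.13 and 0.33 in HCC4006, and both were lower without overlap in HCC827 (−0.41 and −0.89).

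Regulators of mitochondrial biogenesis had a median of 0.11 in HCC4006, where 8 of 12 were positive and 1, MYC, was free of overlap (111 and 78.9 FPKM in resistant libraries, 65.6 and 43.6 FPKM in DMSO libraries). In HCC827 the median was −0.39, with 9 of 11 negative and 7 of them lower without overlap, with 26.4% of all rows and a median of −0.10 over all rows. These were TFAM and TFB2M, which start transcription of mitochondrial DNA, its RNA polymerase POLRMT, PPARGC1A, PPARGC1B, GABPA and MYC. TFAM had 345 and 234 FPKM in the resistant libraries, against 622 and 462 FPKM in the DMSO libraries (log2 fold change −0.91, SE 0.37, adjusted p = 0.367), and POLRMT had 48.5 and 52.2 FPKM in the resistant libraries, against 98.7 and 75.8 FPKM in the DMSO libraries (log2 fold change −0.78, SE 0.39, adjusted p = 0.448). TFB2M had a log2 fold change of −0.96, PPARGC1B −0.81, GABPA −0.38 and MYC −0.39. PPARGC1A, the coactivator PGC-1alpha, had 1.45 and 0.608 FPKM in resistant HCC827 and 4.404 and 1.94 FPKM in DMSO HCC827, low levels at which a fold change is uncertain. ESRRA was higher without overlap (0.48), and PPRC1, NRF1 and YY1 overlapped (0.12, −0.13 and −0.08 in that order). GABPB1 and TFB1M were listed at 0 in all 8 libraries. In HCC4006 TFAM had −0.36, TFB2M −0.37, POLRMT −0.03, PPARGC1A 2.29, PPARGC1B 0.36, PPRC1 0.50, NRF1 0.40, GABPA −0.06, YY1 0.05 and ESRRA 0.11, and C10orf2, the mitochondrial helicase, 0.11. C10orf2 was listed at 0 in resistant HCC827.

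Enzymes of the citric acid cycle, which feeds NADH and succinate to the chain, had a median of −0.02 in HCC4006 (6 of 13 positive) and −0.50 in HCC827 (4 of 13 positive), where 7 were lower without overlap, with 26.4% of all rows, and 2 higher, with 19.9%. In HCC827 DLD, a subunit shared by the oxoacid dehydrogenases, was lowest, with 424 and 403 FPKM in the resistant libraries, against 776 and 942 FPKM in the DMSO libraries (log2 fold change −1.05, SE 0.33, adjusted p = 0.273), and SUCLG2 highest (0.65). CS, citrate synthase, was lower without overlap in both lines. It had 331 and 345 FPKM in the resistant libraries, against 405 and 614 FPKM in the DMSO libraries in HCC4006 (−0.56), and 419 and 608 FPKM in the resistant libraries, against 733 and 1347 FPKM in the DMSO libraries in HCC827 (−0.98). In HCC4006 it was the lowest of the list and FH, fumarase, the highest (0.62). With each HCC827 library left out in turn the median stayed between −0.72 and −0.28. The median of the 63 respiratory members in the same line was 0.12 and changed sign with the library left out. Over all HCC827 rows with a known transcript length, the median was −0.05 in the shortest quintile and −0.25 in the longest. The part of length in this contrast was not tested.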

How the data were processed

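Per the labels' protocols, polyadenylated RNA of 8 libraries was purified with a miRNeasy kit and prepared with TruSeq RNA v2, which does not mark strand. The authors deposited gene-level FPKM in 2 tables, 1 per line. TopHat 1.4.1, Cufflinks 1.3.0, Cuffdiff and genome build hg19 stand in the submitters' processing notes. They give no annotation or options. Depth is unknown, so precision rests on replicate spread. The column letters A and B were not tied to the labels' replicate numbers.

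From these values log2(FPKM + 0.5) was computed and tested here with limma 3.58.1 in R 4.3.3 (lmFit, and eBayes with a trend). Rows entered if above 0 in every library of the fit with a mean of at least 0.5 FPKM. Each line was fitted alone, and the difference between lines over 8 libraries. P-values were adjusted by the Benjamini-Hochberg method across every row fitted, and intervals are 95%. Fold changes are on this log2 scale, which understates changes of low genes. The fits were tested on simulated data. "Without overlap" means that both libraries of a group lay beyond both of the other. On rows with comma-joined names stood 12 members, 6 of them among the 63 above 0. All 80 lay on their reference chromosome.

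Members, lists, motifs and tests were chosen with earlier results of these data known. Values of 1 member and 1 marker are not reported here. Named by rule were called members, the 2 highest and 2 lowest changes per complex and line, level extremes, members at 0, core subunits, isoform sets and list extremes. Alternatives were rows at 0 included, other filters, pseudocounts of 0.1 and 1, quantile and median scaling, a shared spread, no trend, a block by column letter, and each library left out.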

Additional observations from a re-analysis of the deposited data

Results flagged for a closer look

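Both libraries of the resistant group lay beyond both libraries of the DMSO group in each line, but in opposite directions, for 4 of 63 members, with 15% of all rows doing the same. The HCC827 change minus the HCC4006 change was 1.59 for ATP5G2, 1.55 for NDUFA7, 1.10 for NDUFB5 and −1.08 for NDUFS1 on the log2 scale. By limma's interaction contrast over 8 libraries the adjusted p-values were 0.164 for ATP5G2, 0.170 for NDUFA7, 0.181 for NDUFB5 and 0.185 for NDUFS1, so none passed the threshold. NDUFB5 stands on a row joined with AC090425.2. Groups of 2 libraries are too small for a test of single outlying samples.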

How the results depend on the processing

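Direction and side of the threshold were followed for 18 members in each line, the highest and lowest of each complex. With every library kept they held for 18 in HCC4006 and 16 in HCC827, and with 1 library left out for 3 in HCC4006, where 13 passed the threshold without a DMSO library and 2 changed sign, and for 12 in HCC827, where 6 changed sign. No member above 0 in all 8 libraries was called in either line or in the difference under any alternative that kept every library. With rows listed at 0 included, 1860 rows were called in HCC4006, 1314 in HCC827 and 2501 for the difference between lines, and 4, 6 and 10 members in that order. Each of these had a 0 in a group of 1 line or both, NDUFS3 in HCC4006 being called on values above 0 there. With no filter on the mean, 23 rows were called in HCC4006 and 10 in HCC827, and with the spread shared over all libraries 248 and 68.

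A block by column letter gave 311 calls in HCC4006, 341 in HCC827 and 173 for the difference, with 0 members among them. The letters name only columns, and the correlation of same-letter deviations was −0.08 in HCC4006 and 0.21 in HCC827.

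With 1 library left out, 4 to 6389 rows were called in HCC4006, 0 to 154 in HCC827 and 21 to 1193 for the difference, and 0 to 21 members in HCC4006. The median of complex I in HCC4006 ran between −0.33 and 0.044 and that of complex IV between −0.37 and 0.53. Of all 63 members, 30 in HCC4006 and 44 in HCC827 changed sign with some library left out. Among the 18 followed in each line, those in HCC4006 were COX7C (−0.52 to 0.039) and SDHC (−0.15 to 0.47). In HCC827 they were COX5B (−0.22 to 1.05), COX7B (−1.05 to 0.65), COX8A (−0.73 to 0.50), SDHA (−0.99 to 0.066), SDHC (−0.33 to 0.15) and UQCRFS1 (−0.94 to 0.28).

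Scaling libraries to the same median raised the members' changes in HCC827 by 0.11, to 0.00022 for COX8A and 0.026 for SDHC, and 6 of 63 changed sign. Quantile normalization raised those in HCC4006 by 0.17, with 10 of 63 changing sign, the complex I median at −0.018 and the median of all 63 at 0.11. Apart from the fewer libraries left in a fit, the cause of these shifts was not tested. Depth is unknown, so no limit from counting can be given.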
